A study of Kluyveromyces lactis with 6 samples.

Results

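The last 10 annotated genes on the right arms of chromosomes A, C, D and F of the budding yeast Kluyveromyces lactis were compared between cells with and without SIR2. They were taken by sorting all gene identifiers of the expression files by chromosome letter and number, which gave 40 genes of 5076; the sort uses no expression values, but these arms were taken up with earlier results of the data known. Position 1 is the last identifier of an arm and position 10 the innermost. On each of these 4 arms the last 10 identifiers were also the last 10 coding genes of the RefSeq table of assembly ASM251v1, in which 10 of the 40 have a symbol. RNA came from 3 strains in 6 libraries, 2 per strain: a wild type with SIR2 (WT, strain LRY2835), and sir2Δ isolate 1 (LRY2849) and sir2Δ isolate 2 (LRY2850). All 3 strains are MATa and lack both HML and HMR, so the controls carry those deletions too. Cells of every strain were in early log phase in rich glucose medium at 30 °C. The design text calls the paired libraries of a strain technical replicates, so each strain is 1 culture.

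Sir2 is a deacetylase that removes acetyl groups from histones and uses NAD+ to do so. In Saccharomyces cerevisiae it works with the other Sir proteins to keep genes next to telomeres and at the silent mating cassettes off, and silencing there fades with distance from the chromosome end. Yeast chromosome ends also carry gene families repeated from arm to arm, whose copies can be hard to tell apart with short reads.

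The targeted gene followed the labels. SIR2 (KLLA0F14663g, an identification from general knowledge since the table has no symbol for it) averaged 65.9 FPKM in WT, 0.0881 in isolate 1 and 0.0791 in isolate 2. FPKM is a fragment count scaled by gene length and by a total for the library (which total is not stated), so levels can be compared between genes. The sum of FPKM per library ran from 1542502 to 1803539; those sums are not depths, the reads behind a value are unknown, and intervals for counting error are left out. Changes below are differences of log2(FPKM + 1) with the standard error (SE) from limma, an adjusted p under 0.05 passes, and a gene was tested when it averaged at least 1 FPKM over the 3 strain means. In bulk RNA, fewer cells expressing a gene and less RNA per cell cannot be told apart.

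Most of the 40 genes were active in WT, and their response to loss of SIR2 was mixed and mostly small. Of the 40, 35 were tested; 11 were higher in sir2Δ, 5 were lower and 19 did not pass. The 5 untested genes were the last 5 of arm D and were listed at 0 in both WT libraries. Among all 5021 tested genes 20.2% were higher and 19.9% lower, against 31.4% and 14.3% of the 35. Rises of at least 1 on the log2 scale were made by 4 of the 35 (11.4%), against 9.1% of all tested genes, and falls of at least 1 by 2 (URA1 and KLLA0A12001g), against 6.13%; both are counts close to the background. The median change of the 35 was 0.29, against −0.06 for all tested genes. All 4 sir2Δ libraries lay above both WT libraries in 19 of the 35 (54.3%, against 34% of all tested genes) and below both in 6 (17.1%, against 41.4%). Without isolate 1 replicate 1 the count of lower genes was 2 in place of 5.

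**Figure D1:**
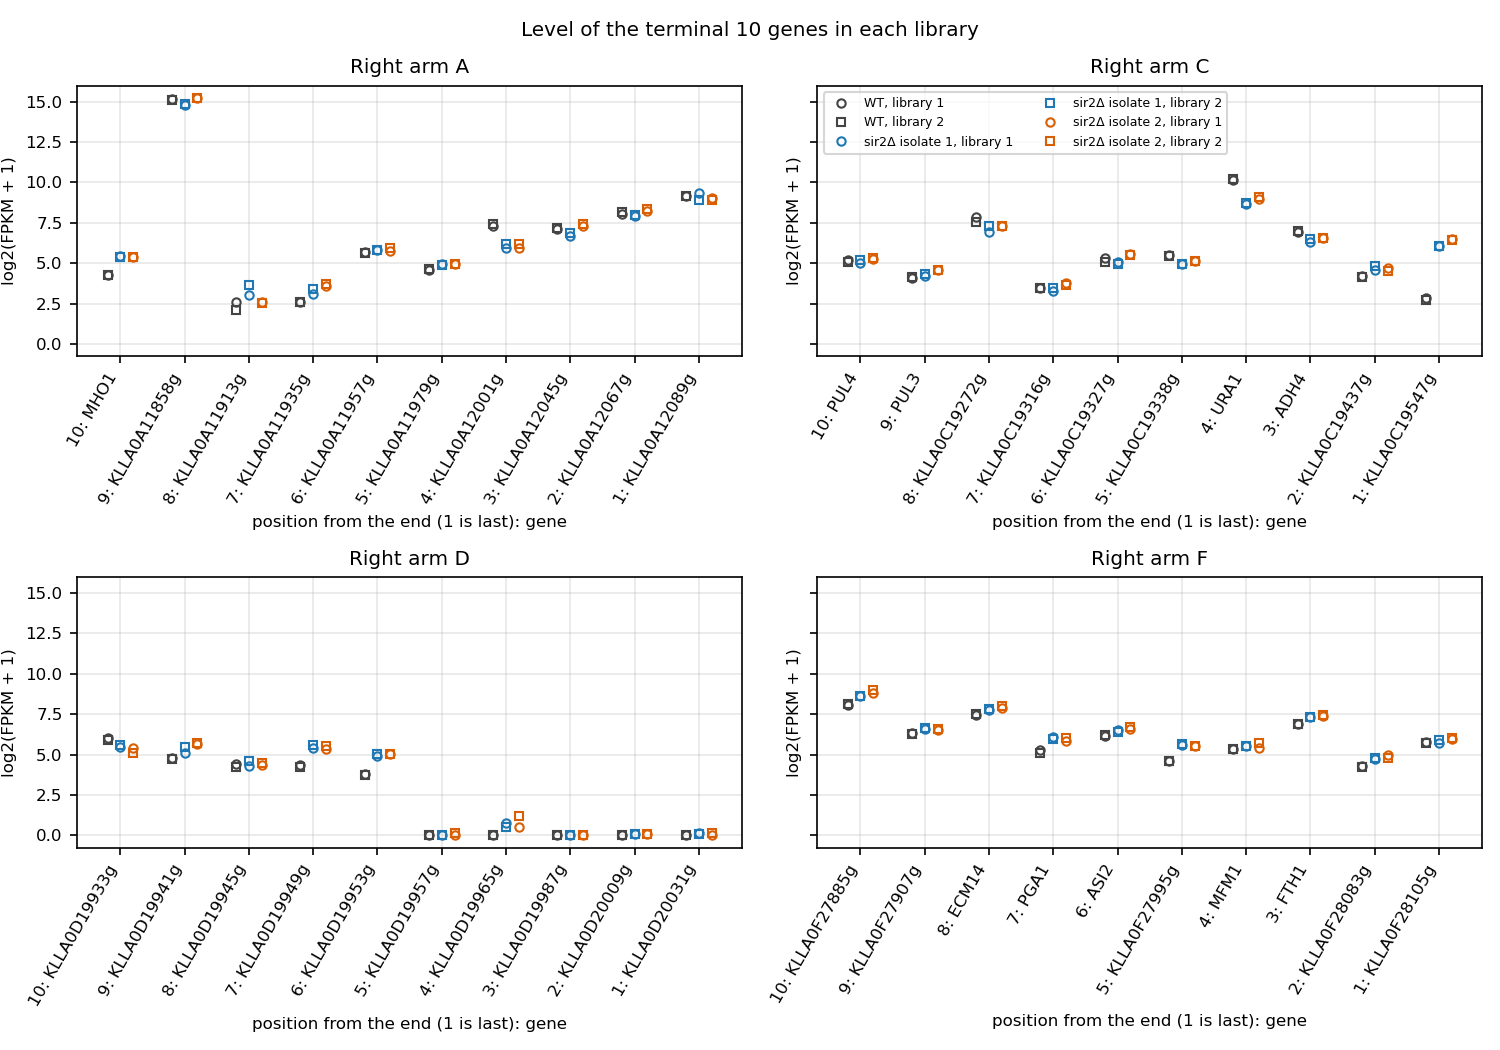
Level of each of the 40 genes on the log2(FPKM + 1) scale (vertical axis) by position from the chromosome end (horizontal axis, 1 is last), 1 panel per right arm, with the 2 libraries of WT, isolate 1 and isolate 2 as separate points. The last 5 genes of arm D sit at or near 0 in every library, while the last gene of arm C rises from 5.81 FPKM in WT to 64.6 and 87.6 FPKM in the isolates.

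The last gene of arm C made the largest change of the 35 tested genes. KLLA0C19547g, which has no symbol, stood at 6.10 and 5.52 FPKM in the WT libraries, 64.8 and 64.5 in those of isolate 1 and 90.6 and 84.7 in those of isolate 2. The groups did not overlap, and the change of 3.49 on the log2 scale (SE 0.21, adjusted p = 1.01e-05 in limma) was higher in 4 of 4 sir2Δ libraries. Its level in WT ranked 4865 among the 5076 genes, so it started from the low end. It was the 1 gene of the arm that passed as higher; the gene next to it, KLLA0C19437g, averaged 17.0 FPKM in WT, 24.9 in isolate 1 and 23.4 in isolate 2 and did not pass (0.48, SE 0.18, adjusted p = 0.0689). KLLA0C19437g passed without WT replicate 1 (adjusted p = 0.0488), without isolate 2 replicate 2 (0.043) and after quantile normalization (0.0476).

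The genes at positions 3 and 4 of arm C fell, 2 steps inward from that rise. URA1 (KLLA0C19360g), which encodes the dihydroorotate dehydrogenase of pyrimidine synthesis, stood at 1155 and 1168 FPKM in the WT libraries, 407 and 423 in those of isolate 1 and 504 and 549 in those of isolate 2. Every sir2Δ library was below both WT libraries, and URA1 changed by −1.31 (SE 0.18, adjusted p = 0.000999 in limma), the largest fall of the 35 tested. ADH4 (KLLA0C19382g), annotated by its symbol as an alcohol dehydrogenase gene, stood at 119 and 125 FPKM in the WT libraries, 76.6 and 87.8 in those of isolate 1 and 93.6 and 94.9 in those of isolate 2. It changed by −0.47 (SE 0.16, adjusted p = 0.0434 in limma), but missed the threshold without WT replicate 2 (adjusted p = 0.0581), isolate 1 replicate 1 (0.0517) or isolate 2 replicate 1 (0.0506), with median centring (0.062), with a constant prior variance (0.0701) and with no filter (0.085).

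KLLA0C19272g, at position 8, was the other lower gene of arm C. It stood at 234 and 185 FPKM in the WT libraries, 123 and 158 in those of isolate 1 and 159 and 157 in those of isolate 2, a change of −0.49 (SE 0.15, adjusted p = 0.0341 in limma). The groups did not overlap, but the WT libraries themselves lay far apart, and the call was lost without WT replicate 1 (adjusted p = 0.125), without isolate 1 replicate 1 (0.0518), with a constant prior variance (0.0606) and with no filter (0.0597).

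The inner genes of arm C include PUL3 and PUL4, which in K. lactis encode a transporter and a transcription factor for use of pulcherrimin, a pigment that binds iron. PUL4 (KLLA0C19228g) averaged 34.2 FPKM in WT, 33.8 in isolate 1 and 37.3 in isolate 2 (0.05, SE 0.17). PUL3 (KLLA0C19250g) averaged 16.0, 18.1 and 23.2 FPKM in the same order (0.34, SE 0.22), and neither passed in limma (adjusted p = 0.828 and 0.24). The next identifiers inward, KLLA0C19206g at position 11 and KLLA0C19184g at position 12, changed by 3.39 and 3.19; they are named here after their values were seen. The difference between these neighbours was not tested. Also on arm C, KLLA0C19316g (0.08), KLLA0C19327g (0.07) and KLLA0C19338g (−0.44, adjusted p = 0.0729) did not pass. KLLA0C19338g passed in limma after quantile normalization (−0.42, adjusted p = 0.0463). It also passed in both fits of 6 libraries in 2 genotype groups, which treat technical libraries as replicates.

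On arm D the last 5 genes were listed at or near 0 in all strains. KLLA0D20031g, the last, stood at 0 and 0 FPKM in the WT libraries, 0.115 and 0.0531 in those of isolate 1 and 0 and 0.0955 in those of isolate 2. KLLA0D20009g stood at 0 and 0 in the WT libraries, 0.0429 and 0.0401 in those of isolate 1 and 0.0375 and 0.0708 in those of isolate 2. KLLA0D19965g, at position 4, stood at 0 and 0 in the WT libraries, 0.679 and 0.42 in those of isolate 1 and 0.403 and 1.32 in those of isolate 2. These 3 genes were thus listed above 0 in sir2Δ libraries only, at levels below 1 FPKM in all but 1 library. KLLA0D19987g was at 0 in all 6 libraries, and KLLA0D19957g was at 0 in 5 and at 0.116 in isolate 2 replicate 2. All 5 stayed under the filter and were not tested; with no filter, limma passed KLLA0D19965g (0.74, adjusted p = 0.0147), KLLA0D20009g (0.07, adjusted p = 0.0181) and KLLA0D20031g (0.09, adjusted p = 0.0499) although all 3 stayed near 0.

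The last genes of arm D share their coding lengths with genes at the other ends of chromosomes. KLLA0D20009g has 1524 nt, a length shared by 12 other genes, of which 6 lie at position 1 or 2 of the 6 left arms, 1 on each. KLLA0D20031g has 1047 nt, shared by 11 others, 4 of them at position 1 of left arms. KLLA0D19965g has 441 nt, shared by 8 others, 5 of them at position 3 or 4 of left arms. For KLLA0D19987g (468 nt) 1 of 14 genes of equal length was terminal, at position 3 of left arm C, and for KLLA0D19957g (525 nt) 0 of 5. In the same length class as KLLA0D20009g, KLLA0A00132g of left arm A was at 0.109 and 0.279 FPKM in WT and between 43.8 and 61.0 in the sir2Δ libraries, while KLLA0D20009g reached 0.0708 at most. KLLA0C00132g of left arm C also has 1524 nt. It was listed at the same value as KLLA0D20009g in isolate 1 replicate 1 (0.0429 FPKM) and isolate 2 replicate 1 (0.0375 FPKM). KLLA0C00132g was at 0 in replicate 2 of both isolates. Genes of equal length with equal fragment counts get the same FPKM, so this match does not show whether reads were shared. In the class of 441 nt, KLLA0D00187g of left arm D stood at 58.6 and 66.7 FPKM in the WT libraries and between 1204 and 1789 in the sir2Δ libraries. KLLA0A00132g and KLLA0D00187g were the 2 of the 16 left-arm genes of equal length that exceeded 1 FPKM in any library; 12 were at 0 in all 6 libraries, the other 4 genes of 441 nt among them, and the remaining 2 reached 0.161 FPKM at most. Protein and gene sequences were not compared here, so relatedness of these genes rests on length and position alone, and no label or header says how reads common to several copies were divided. The levels of the last 5 genes of arm D are therefore uncertain. The left-arm genes were picked out after their values were seen.

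The inner 5 genes of arm D were active and 3 of them rose. KLLA0D19953g, at position 6 next to the genes listed near 0, stood at 12.8 and 12.2 FPKM in the WT libraries, 29.6 and 32.2 in those of isolate 1 and 32.0 and 32.0 in those of isolate 2 (1.27, SE 0.18, adjusted p = 0.00121 in limma). Its neighbour KLLA0D19949g stood at 19.7 and 17.8 FPKM in the WT libraries, 41.6 and 46.4 in those of isolate 1 and 39.4 and 45.3 in those of isolate 2 (1.16, SE 0.17, adjusted p = 0.00125). In both genes all 4 sir2Δ libraries were far above either WT library, with no overlap.

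KLLA0D19941g, at position 9, stood at 27.1 and 24.9 FPKM in the WT libraries, 32.4 and 43.0 in those of isolate 1 and 50.2 and 51.6 in those of isolate 2 (0.72, SE 0.21, adjusted p = 0.0261 in limma). Isolate 2 was the higher of the isolates in each library, and with no filter the gene missed the threshold (adjusted p = 0.101). KLLA0D19933g, at position 10, went the other way, from 64.3 and 59.2 FPKM in the WT libraries to 43.3 and 46.3 in isolate 1 and 40.5 and 32.8 in isolate 2 (−0.60, SE 0.18, adjusted p = 0.0296). That call was lost without isolate 1 replicate 1 (adjusted p = 0.0557) and with no filter (0.0966). KLLA0D19945g, at position 8, did not pass (0.12, SE 0.19).

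Arm F was the most even of the 4 arms. All 10 of its genes had a change above 0, as had 26 of the 35 (74.3%) and 45.6% of all tested genes. Its 10 changes ran from 0.17 to 0.98 on the log2 scale, none of which turned sign under median centring or quantile normalization; 5 passed as higher and 0 as lower in limma, with 0 lower also at an unadjusted p under 0.05. In 9 of the 10 all sir2Δ libraries were above both WT libraries; KLLA0F28105g, the last gene, was the exception. Medians of the 10 strain means were 62.1 FPKM in WT, 75.9 in isolate 1 and 77.7 in isolate 2.

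The largest rise on arm F was that of KLLA0F27995g, at position 5, which stood at 23.0 and 23.4 FPKM in the WT libraries, 46.8 and 48.5 in those of isolate 1 and 45.6 and 46.0 in those of isolate 2 (0.98, SE 0.16, adjusted p = 0.00236 in limma). PGA1 (KLLA0F27951g), in S. cerevisiae a gene for adding mannose to the anchors of cell surface proteins, stood at 37.6 and 33.6 FPKM in the WT libraries, 67.3 and 61.3 in those of isolate 1 and 55.9 and 64.7 in those of isolate 2 (0.79, SE 0.16, adjusted p = 0.00532). KLLA0F27885g, the innermost of the 10, stood at 270.4 and 281 FPKM in the WT libraries, 400 and 389 in those of isolate 1 and 444 and 514 in those of isolate 2 (0.65, SE 0.17, adjusted p = 0.0153). In these 3 genes the lowest sir2Δ library was well above the higher WT library.

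Closer to the end, FTH1 (KLLA0F28039g), whose S. cerevisiae counterpart moves iron out of the vacuole, stood at 116 and 115 FPKM in the WT libraries, 157 and 159 in those of isolate 1 and 169 and 176 in those of isolate 2 (0.51, SE 0.15, adjusted p = 0.0257 in limma). KLLA0F28083g, at position 2, stood at 18.5 and 17.4 FPKM in the WT libraries, 24.8 and 26.9 in those of isolate 1 and 30.5 and 27.1 in those of isolate 2 (0.58, SE 0.18, adjusted p = 0.0371). Neither overlapped with WT, but both calls were lost without isolate 1 replicate 2 (adjusted p = 0.0517 for FTH1 and 0.056 for KLLA0F28083g), that of KLLA0F28083g also without isolate 2 replicate 1 (0.0625) and with no filter (0.0782).

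The remaining 5 genes of arm F did not pass. KLLA0F28105g, the last gene, averaged 52.8 FPKM in WT, 56.1 in isolate 1 and 63.4 in isolate 2 (0.17, SE 0.16). ECM14 (KLLA0F27929g), of a carboxypeptidase-like family linked to the cell wall in S. cerevisiae, changed by 0.38 (adjusted p = 0.0711). ASI2 (KLLA0F27973g), in S. cerevisiae part of a ubiquitin ligase of the inner nuclear membrane, changed by 0.37 (adjusted p = 0.0881). After quantile normalization ASI2 passed in limma (0.39, adjusted p = 0.0377). KLLA0F27907g changed by 0.29 and MFM1 (KLLA0F28017g), a magnesium transporter of mitochondria in S. cerevisiae, by 0.18.

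KLLA0A11913g and KLLA0A11935g were low in WT, at means of 4.18 and 4.95 FPKM, but arm A held abundant transcripts at its end. Its last gene, KLLA0A12089g, stood at 567 and 557 FPKM in the WT libraries, 639 and 481 in those of isolate 1 and 513 and 483 in those of isolate 2, so the groups overlapped (−0.10, SE 0.15, adjusted p = 0.645 in limma). The genes at positions 2 and 3, KLLA0A12067g (0.03, SE 0.18) and KLLA0A12045g (−0.08, SE 0.23), averaged 271 and 140 FPKM in WT and did not pass either. KLLA0A11858g, at position 9, averaged 35903 FPKM in WT, the third most abundant transcript of the 5076, and 28726 and 37591 in isolates 1 and 2 (−0.13, SE 0.27, adjusted p = 0.735).

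A single gene of arm A fell. KLLA0A12001g, at position 4, stood at 157 and 170 FPKM in the WT libraries, 59.5 and 73.1 in those of isolate 1 and 61.1 and 72.5 in those of isolate 2 (−1.29, SE 0.14, adjusted p = 0.000356 in limma). All 4 sir2Δ libraries were far below either WT library, and the isolates overlapped with each other.

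Both genes that rose on arm A lay farther in. MHO1 (KLLA0A11836g, position 10) stood at 18.3 and 18.1 FPKM in the WT libraries, 42.6 and 39.96 in those of isolate 1 and 41.2 and 40.4 in those of isolate 2 (1.13, SE 0.17, adjusted p = 0.00145 in limma). KLLA0A11935g (position 7) stood at 4.95 and 4.95 FPKM in the WT libraries, 7.45 and 9.75 in those of isolate 1 and 11.2 and 12.1 in those of isolate 2 (0.89, SE 0.28, adjusted p = 0.038). No sir2Δ library of either gene overlapped with WT, but KLLA0A11935g missed the threshold after quantile normalization (0.30, adjusted p = 0.444). KLLA0A11913g (0.61, adjusted p = 0.227), KLLA0A11957g (0.18, adjusted p = 0.37) and KLLA0A11979g (0.32, adjusted p = 0.168) did not pass.

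**Figure D2:**
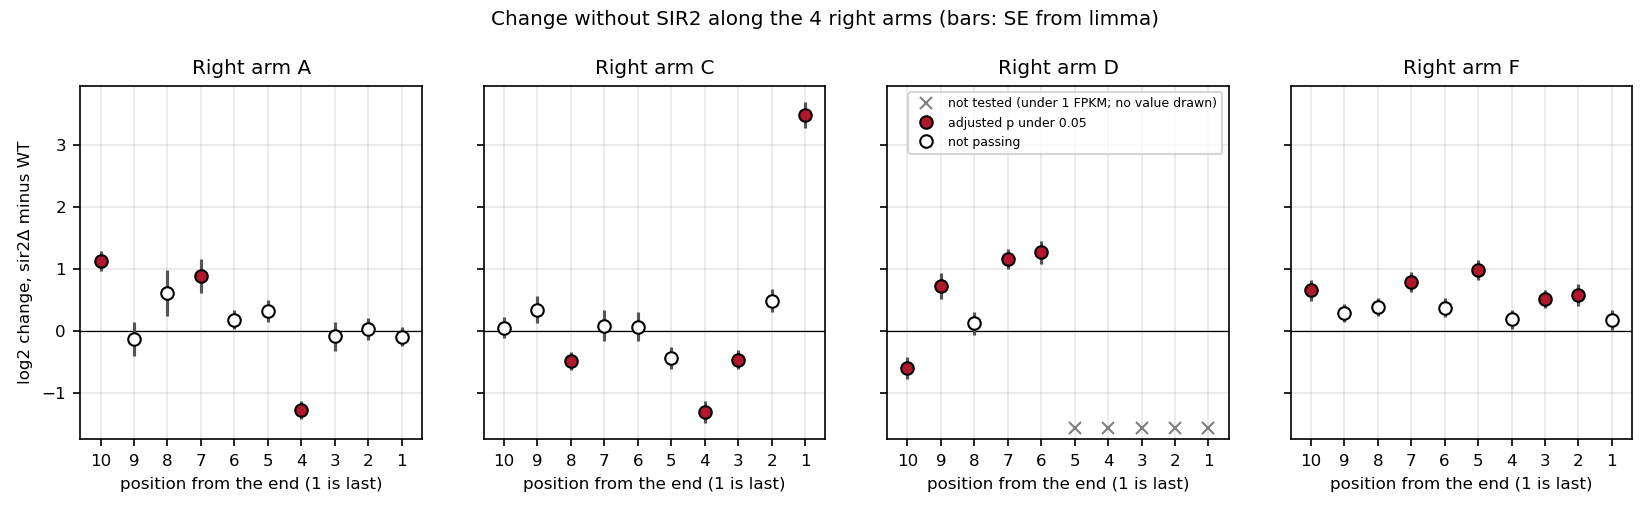
Change in sir2Δ against WT (log2 scale, vertical axis) by position from the end (horizontal axis, 1 is last) for the right arms A, C, D and F, with the SE from limma as bars; filled points passed at an adjusted p under 0.05, open points did not, and crosses mark genes not tested. Changes span −1.31 (URA1) to 3.49 (KLLA0C19547g), and all 10 points of arm F lie above 0.

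Nearness to the end did not go with more calls of higher genes. Over the 4 arms, 4 of 15 tested genes at positions 1 to 5 were higher and 3 lower (26.7% and 20%, median change 0.17). At positions 6 to 10, 7 of 20 were higher and 2 lower (35% and 10%, median 0.36). Among all tested genes 20.2% were higher and 19.9% lower, so the shares at positions 1 to 5 lay near the background. At position 1 the 3 tested genes changed by −0.10 (KLLA0A12089g), 0.17 (KLLA0F28105g) and 3.49 (KLLA0C19547g). At position 4, KLLA0A12001g and URA1 were lower and MFM1 did not pass. The filter removed 5 genes at positions 1 to 5 and none at positions 6 to 10, so the inner and outer positions are not matched, and their difference was not tested. The next 10 identifiers inward on the same arms, positions 11 to 20, held 16 higher and 3 lower of 40 tested (40% and 7.5%), with a median of 0.35.

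The arms themselves had unlike counts, those of arms A and C close to the shares over all tested genes (20.2% higher and 19.9% lower). Higher and lower genes numbered 2 and 1 of 10 tested on arm A (median 0.11), 1 and 3 of 10 on arm C (0.06), 3 and 1 of 5 on arm D (0.72) and 5 and 0 of 10 on arm F (0.45). Each arm is 1 stretch of neighbours, so the arms are described and not tested against each other. By comparison, 18 of 19 tested terminal genes of right arms B and E were higher and 0 lower in limma, also at an unadjusted p under 0.05 (median 1.61), and 17 of 30 on the left arms were higher and 2 lower (median 0.91). The share of genes under 1 FPKM in WT was 12.5% of the 40, 20% on right arms B and E, 51.7% on the left arms and 1.58% of all genes. The filter uses the mean over strains, so a gene near 0 in WT entered the test only with higher sir2Δ levels and one near 0 in every strain was left out, and shares of tested genes on arms with many such genes cover only part of their 10. Without isolate 1 replicate 2 arm F had 3 higher genes in place of 5. Without isolate 1 replicate 1, arm C had 1 lower gene in place of 3 and arm D 0 in place of 1. Arm C had 2 higher genes in place of 1 without WT replicate 1 or isolate 2 replicate 2.

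**Figure D3:**
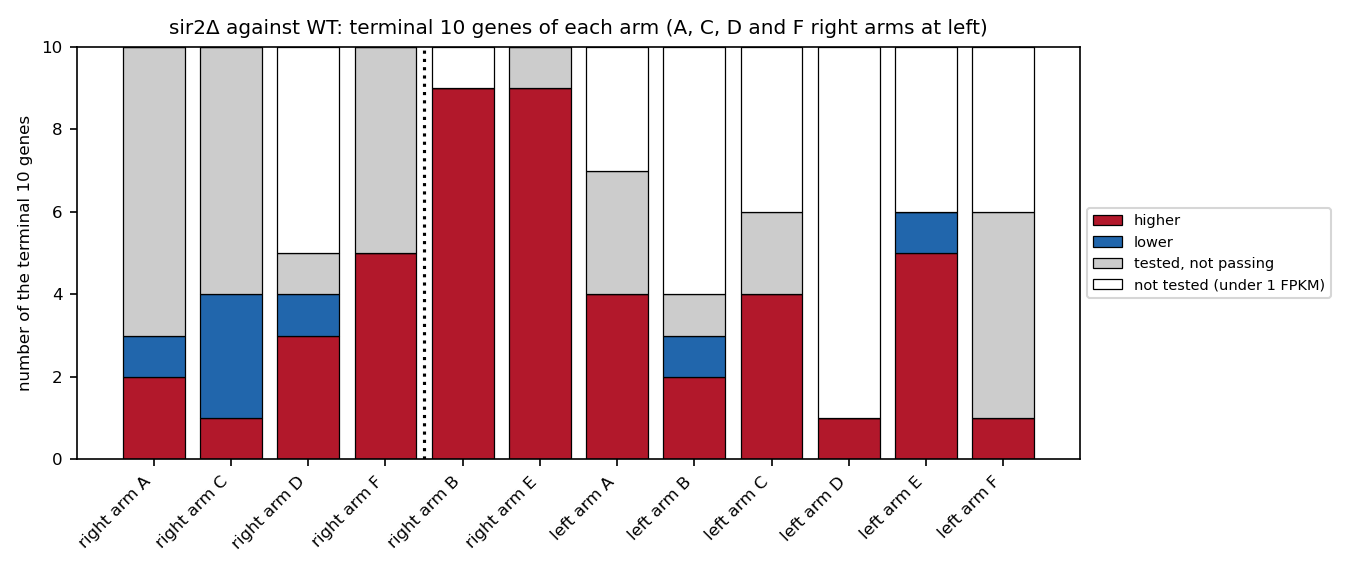
Number of the terminal 10 genes of each chromosome arm (vertical axis) that were higher, lower, not passing or not tested in sir2Δ against WT; right arms A, C, D and F stand left of the dotted line and the other 8 arms right of it. Arms A, C, D and F have 2, 1, 3 and 5 higher genes, against 9 each on right arms B and E.

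The isolates were also set against WT singly in a limma fit of the 6 libraries, where the only error is that between the paired libraries of a culture; both contrasts share the WT libraries. Isolate 1 had 17 higher and 8 lower genes of the 35, against a background of 30.8% higher and 36.6% lower. Isolate 2 had 21 and 6, against 32.8% and 38.7%. On arm F isolate 1 had 8 higher and isolate 2 had 9 higher, with 0 lower in either (limma; 0 also at an unadjusted p under 0.05). KLLA0A12045g was lower than WT in isolate 1 (−0.39, adjusted p = 0.00217) and higher than WT in isolate 2 (0.22, adjusted p = 0.0499). Averaged over the isolates it did not pass, as given above.

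Isolate 2 was more often the higher isolate among these genes. In the same fit 9 of the 35 were higher in isolate 2 than in isolate 1 and 1 was lower, against 7.89% higher and 10.8% lower among all tested genes. KLLA0A12045g differed most among the 9, with 101 and 113 FPKM in isolate 1 and 156 and 172 in isolate 2 (0.61, SE 0.10, adjusted p = 0.000751). The isolates did not overlap, and WT at 135 and 146 FPKM lay between them. KLLA0C19327g, at position 6 of arm C, stood at 39.2 and 32.4 FPKM in the WT libraries, 31.9 and 29.8 in those of isolate 1 and 46.7 and 43.9 in those of isolate 2 (0.54, SE 0.10, adjusted p = 0.00258 in limma).

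KLLA0C19547g, the strongly raised last gene of arm C, was also higher in isolate 2 (0.43, SE 0.09, adjusted p = 0.00548 in limma). KLLA0D19941g (0.44), KLLA0A11935g (0.41), KLLA0A11858g (0.39), KLLA0A12067g (0.35), PUL3 (0.35) and URA1 (0.34) complete the 9. KLLA0A11858g stood at 36367 and 35439 FPKM in the WT libraries, 27673 and 29780 in those of isolate 1 and 37470 and 37713 in those of isolate 2. KLLA0A12067g stood at 262 and 280.2, 240.4 and 251, and 299.6 and 329 FPKM in the same order. In both genes WT lay between the isolates. PUL3 stood at 15.6 and 16.3, 17.3 and 18.8, and 23.2 and 23.3 FPKM, with WT below both isolates. The lower gene was KLLA0A11913g, at 5.10 and 3.27 FPKM in WT, 7.32 and 11.6 in isolate 1 and 4.92 and 4.86 in isolate 2 (−0.80, SE 0.19, adjusted p = 0.0115). Its isolate 1 libraries differed by 0.60 on the log2 scale, the widest technical gap of the 35, whose median was 0.18. On arm F 0 genes passed between isolates (limma; 1 at an unadjusted p under 0.05), with differences from −0.09 to 0.28. KLLA0F27885g passed there without isolate 2 replicate 1 (0.38, adjusted p = 0.0359). The 25 members that did not pass lay between −0.29 and 0.34. Of the other members, KLLA0D19933g passed as lower in isolate 2 without isolate 2 replicate 1 (−0.44, adjusted p = 0.0355) and KLLA0C19316g as higher without isolate 1 replicate 2 (0.45, adjusted p = 0.0418). Without isolate 1 replicate 1 or without isolate 2 replicate 2 the count of 9 fell to 3, and 2 of the 10 calls held in every alternative tried, those of KLLA0A12045g and KLLA0C19547g.

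**Figure D4:**
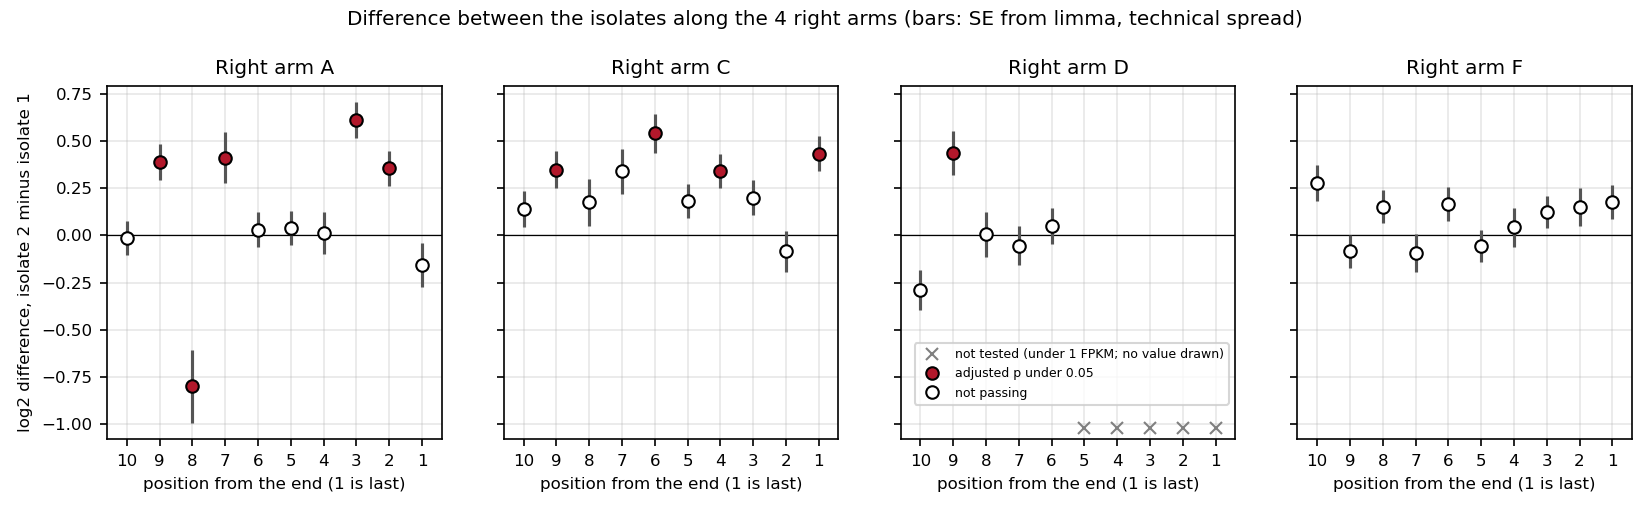
Difference between isolate 2 and isolate 1 (log2 scale, vertical axis) by position from the end (horizontal axis, 1 is last) on the 4 right arms, with the SE from limma, which reflects technical spread, as bars; filled points passed, open points did not, and crosses mark genes not tested. Filled points are on arms A (5), C (4) and D (1), and none is on arm F, where KLLA0F27885g passed without isolate 2 replicate 1.

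Genes that act in telomere structure and silencing were looked at as a pathway list, matched by symbol. Of its 39 names 29 were found besides SIR2, and 5 were higher, 4 lower and 20 not passing in sir2Δ (median −0.11), near the background shares of 20.2% and 19.9%. The highest were NPT1, which makes a precursor of NAD+ (3.08), and the nicotinamidase gene PNC1 (0.66). The lowest were TBF1, whose S. cerevisiae counterpart binds repeats in subtelomeric DNA (−1.22, SE 0.18, adjusted p = 0.00132 in limma), and the corepressor gene CYC8 (−0.70, SE 0.16, adjusted p = 0.00934).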

How the data were processed

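The authors deposited 1 FPKM value per gene and library, made with TopHat2 2.0.10 and Cuffnorm 2.2.1 as the submitters' processing notes name them; build, annotation and scaling option are not stated there. Per the labels' protocols the kit did not keep the strand. Names and coding lengths came from RefSeq (ASM251v1, all 5076 identifiers matched). Gene order came from the identifiers, and RefSeq start positions served only to check the last 10 genes of the 4 arms. No other coordinates were used because the builds could not be compared. The 40 members and the lists were chosen with earlier results of these data known.

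The scale was log2(FPKM + 1), on which changes of low genes come out too small. For sir2Δ against WT, technical libraries were averaged and 3 strain means fitted with limma 3.58.1 (R 4.3.3, intensity trend, 1 residual degree of freedom); WT was assumed to vary like the isolates. Genes averaging at least 1 FPKM were tested (5021, leaving out 55), two-sided, with Benjamini-Hochberg adjustment over all of them. Single-isolate contrasts came from the 6 libraries in 3 groups. The fits were tested on simulated data in which WT was given the spread of the isolates, so that assumption was not checked. All members are named, with every library's value for those that passed in sir2Δ against WT or between isolates. Alternatives varied the pseudocount (0.1), filter (none or 10 FPKM), scaling, prior variance and replicate block, and left out each library. Protein relatives, planned as named genes, were not analysed here.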

Additional observations from a re-analysis of the deposited data

Results flagged for a closer look

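The responses of the isolates, set against the same WT libraries, differed for 10 of the 35 tested genes by a test of the difference itself (isolate 2 minus isolate 1, limma over 6 libraries, adjusted p under 0.05). The difference was 0.61 for KLLA0A12045g, 0.54 for KLLA0C19327g, 0.44 for KLLA0D19941g, 0.43 for KLLA0C19547g, 0.41 for KLLA0A11935g and 0.39 for KLLA0A11858g. It was 0.35 for KLLA0A12067g, 0.35 for KLLA0C19250g (PUL3), 0.34 for KLLA0C19360g (URA1) and −0.80 for KLLA0A11913g. By the same test 7.89% of all tested genes were higher and 10.8% lower in isolate 2. Most of the 10 calls were lost in at least 1 alternative tried, as given above. These p-values rest on technical libraries of 1 culture per isolate, so culture and isolate cannot be told apart.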

How the results depend on the processing

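Of the 16 members that passed in sir2Δ against WT, 9 passed in every alternative in which they were tested, and 11 passed without each library in turn. The count of 11 higher genes was between 9 and 12 in every alternative but the fits with 6 libraries in 2 genotype groups, which treat technical libraries as replicates: 17 without and 16 with a replicate block. The count of 5 lower genes was 2 with no filter, 3 with a constant prior variance and 2 to 5 without single libraries. The lower count was 4 with median centring. It was 6, with 4 on arm C, after quantile normalization and in either fit of 6 libraries in 2 groups. Quantile normalization also gave 6 higher genes on arm F in place of 5, and the setting with no filter gave 4. On arm A the 2 higher genes became 1 with the 10 FPKM filter, which leaves KLLA0A11935g untested, and 1 after quantile normalization. On arm C the higher count of 1 became 2 after quantile normalization, 3 in the fit of 6 libraries with no replicate block, 2 with the replicate block and 1 to 2 without single libraries. Its lower count of 3 became 1 with no filter, 1 with a constant prior variance and 1 to 3 without single libraries. On arm D, with no filter, 5 were higher in place of 3 and 0 lower in place of 1, and the lower count was 0 to 1 without single libraries. On arm F the 5 higher genes became 8 with either fit of 6 libraries in 2 groups and 3 to 5 without single libraries.

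Between isolates, the 9 higher genes were 3 to 11 without single libraries. The 1 lower gene became 0 with no filter, 0 with the 10 FPKM filter, 0 after quantile normalization, 2 with the replicate block, and 0 to 1 without single libraries. With the replicate block the isolates also differed in KLLA0F27885g (0.28, adjusted p = 0.0294), KLLA0C19316g (0.34, 0.0343) and KLLA0D19933g (−0.29, 0.021). Same-numbered libraries deviated together across genes with correlations of 0.00518 (WT and isolate 1), 0.0549 (WT and isolate 2) and 0.206 (isolates 1 and 2). The numbers were not taken as pairs in the main fits. With the replicate block 11 genes were higher and 2 lower in isolate 2, in place of 9 and 1.

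Some changes and differences that had not passed turned sign. Against WT these were, after quantile normalization, KLLA0A11913g (−0.18), KLLA0A12067g (−0.0454) and KLLA0C19316g (−0.20), and, without single libraries, KLLA0A12067g (−0.0137 to 0.0809), KLLA0A12089g (−0.20 to 0.0059) and KLLA0C19327g (−0.0655 to 0.20). Between isolates they were, after quantile normalization, KLLA0A11836g (0.0061) and KLLA0A12001g (−0.0189). Without single libraries, the isolate difference ran from −0.0612 to 0.0303 for KLLA0A11836g, −0.0481 to 0.11 for KLLA0A11957g, −0.13 to 0.16 for KLLA0A12001g and −0.36 to 0.0489 for KLLA0A12089g, which passed at the low end (adjusted p = 0.0277). It ran from −0.0041 to 0.35 for KLLA0C19272g, −0.19 to 0.0236 for KLLA0C19437g, −0.16 to 0.17 for KLLA0D19945g, −0.15 to 0.0422 for KLLA0D19949g and −0.0114 to 0.11 for KLLA0D19953g. It ran from −0.20 to 0.009 for KLLA0F27951g and −0.11 to 0.20 for KLLA0F28017g. The cause of these moves was not tested. Depth is unknown, so no limit on genes listed at 0 can be given.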
